A study of Mus musculus with 15 samples.

Results

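The genes described here encode inhibitors of proteases: the serpins, the Kazal-type SPINK inhibitors, the WAP-domain proteins Slpi and Wfdc2, the cystatins, and the Kunitz-type inhibitors Spint1, Spint2 and Tfpi. They were taken by gene symbol, as every symbol on the array that starts with Serpin or Spink or equals Slpi, Wfdc2, Cst3, Cstb, Csta1, Spint1, Spint2, Tfpi or Tfpi2. Of 68 such symbols, 25 had a probe with a detection p-value under 0.05 on at least 3 arrays, and each was followed on its brightest probe. These 25 genes are part of 10194 genes, on 14396 probes, that passed the same filter. The filter reads the detection of a probe over all arrays. A probe can therefore pass through challenged arrays alone, as Serpini2 did with 3 of them.

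Whole-lung RNA of 15 C57BL/6 mice, all 22 weeks old, was hybridised to Illumina beadchips with 1 array per mouse. The groups were 4 homozygous mutants challenged with OVA (ovalbumin, the main protein of egg white, commonly given to mice as a model allergen), 4 wild types challenged with OVA, 3 homozygous mutants without challenge and 4 wild types without challenge. The mutated gene is taken to be Ifit2 from the title of the study, since the labels give only homozygote or wild type; the design text calls the mutants male and gives no sex for the wild types. The labels state neither how the allele was made nor the schedule of sensitization and challenge. Both Ifit2 probes were detected on 0 of 7 mutant arrays and on 8 of 8 wild-type arrays.

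Arrays of challenged lungs were dimmer. Mean signal was 320 to 494 units on the challenged mutant arrays, 438 to 502 on the challenged wild-type arrays, 620 to 666 on the unchallenged mutant arrays and 495 to 645 on the unchallenged wild-type arrays. The dimmest, challenged mutant 4, had 39.8% of its probes detected and 15 of the 25 inhibitor genes. Challenged mutants 1 and 2 and challenged wild types 1 and 2 also carried strong signals of exocrine pancreas genes, with 36217 to 428476 summed units over 23 markers, against 878 to 2198 on the other 11 arrays. Type 2 alveolar cell markers were detected for 10 or 11 of 11 genes and club cell markers for 7 of 7 on every array; the labelled tissue is lung.

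As background, serpins inhibit by a suicide mechanism: the protease cuts a flexible loop of the inhibitor, the serpin folds around it, and the enzyme stays trapped. Clade A serpins are mostly secreted, many of them into plasma, whereas clade B serpins lack a classical signal peptide and guard cells against proteases in the cytosol. Kazal, Kunitz and WAP-domain inhibitors instead block the active site tightly and reversibly, and cystatins do the same to papain-like cysteine proteases. In the lung such proteins hold back enzymes of neutrophils, mast cells and macrophages, and airway epithelium secretes several of them.

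**Figure D1:**
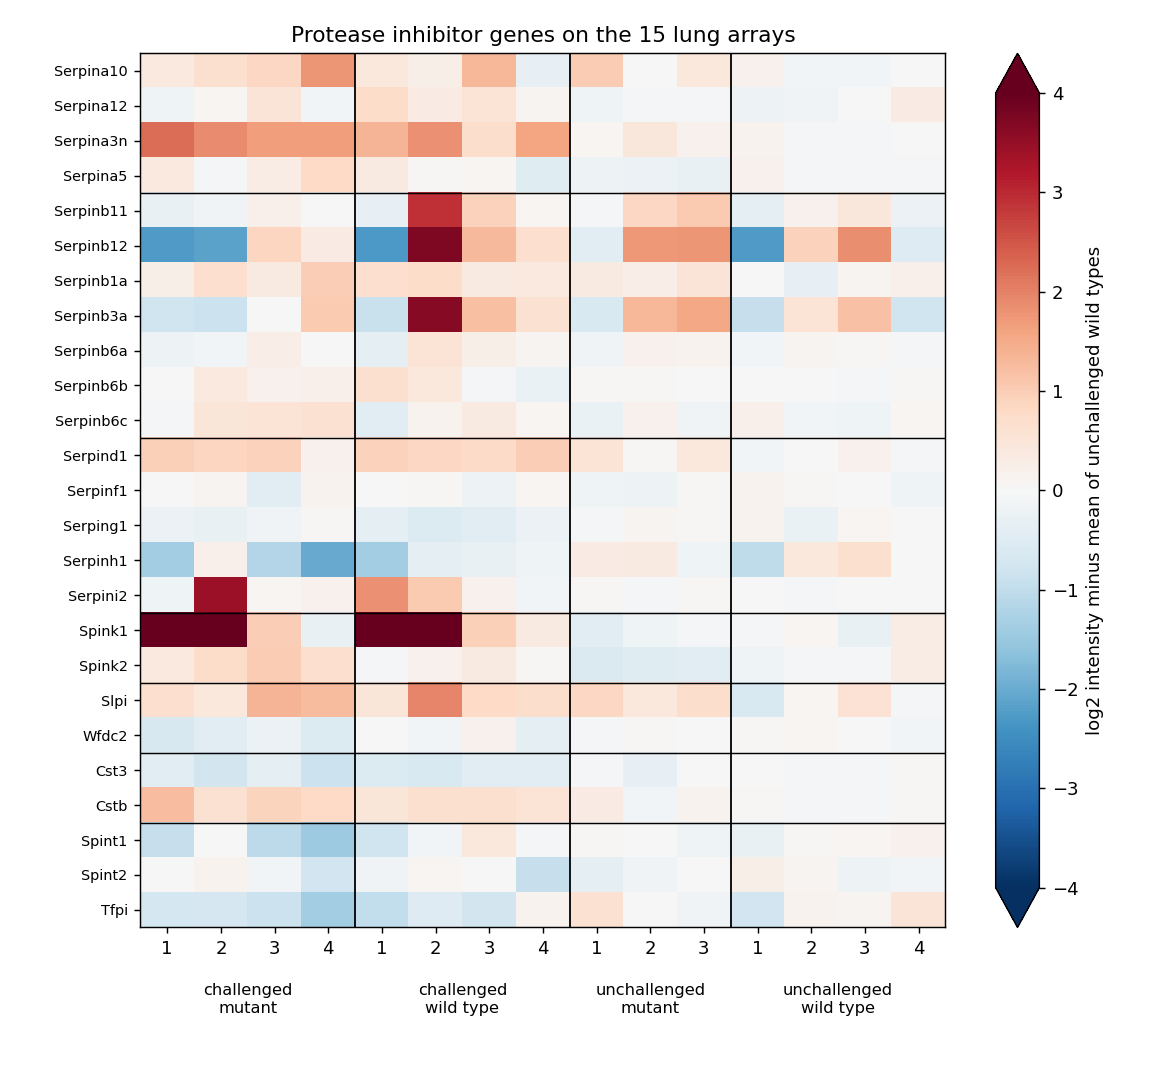
Level of each of the 25 inhibitor genes (rows, grouped by family) on each of the 15 arrays (columns, grouped as challenged mutants, challenged wild types, unchallenged mutants and unchallenged wild types), as log2 intensity minus the mean of the 4 unchallenged wild types. Colours stop at 4 log2 units either way, and Spink1 lies beyond that on 4 challenged arrays; Serpina3n is raised on all 8 challenged arrays, while Serpinb11, Serpinb12 and Serpinb3a peak on challenged wild type 2.

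OVA challenge moved 8 of the 25 inhibitor genes in mutants and 7 in wild types (limma, adjusted p under 0.05 over all 14396 probes). In mutants 4 rose (Serpina3n, Spink2, Cstb and Serpina5) and 4 fell (Tfpi, Spint1, Cst3 and Wfdc2). In wild types 5 rose (Serpina3n, Slpi, Serpind1, Cstb and Serpinb1a) and 2 fell (Cst3 and Serping1). Serpina3n, Cstb and Cst3 passed in both genotypes, 5 genes in mutants alone, 4 in wild types alone, and 13 in neither. These shares lie near those of the whole array: 30.5% of all probes were called in mutants (13.5% higher, 17% lower) and 22.5% in wild types (9.8% higher, 12.7% lower). Median differences of the 25 genes were 0.16 log2 units in mutants and 0.19 in wild types, against -0.02 and -0.01 over all probes. In whole-lung RNA, fewer cells of a type and less RNA per cell cannot be told apart.

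Groups did not overlap for 4 genes that were higher and 3 that were lower in challenged mutants (16.8% and 21.3% of all probes), and for 5 higher and 1 lower in challenged wild types (12.9% and 15.9% of all probes). With mean signal as a covariate, which moves with challenge, Serpina3n alone was called in mutants, and Serpina3n, Serpind1 and Serping1 in wild types. Over all probes that fit called 190 in mutants and 964 in wild types. Several differences that were no longer called stayed about as large or grew: in mutants Spink2 was 1.20, Cstb 0.81, Wfdc2 -0.61 and Cst3 -0.40 log2 units, and in wild types Slpi was 1.15, Cstb 0.61 and Cst3 -0.45. Others shrank or turned, with Spint1 at -0.02, Serpina5 at -0.04 and Tfpi at 0.18 in mutants and Serpinb1a at 0.28 in wild types. Without the 4 arrays with high pancreas signal, 9 genes were called in mutants and 3 in wild types (Cstb, Serpina3n and Serpind1). Over all 14396 probes that fit called 5603 in mutants and 2444 in wild types, against 4392 and 3240 in the main fit. It keeps only arrays 3 and 4 of each challenged group. Where a call ended there, fewer arrays and less pancreas signal cannot be told apart. Leaving out unchallenged mutant 1, 2 or 3 left 4, 5 and 4 calls in mutants, beside 3235, 2310 and 3274 of all probes. Leaving out challenged wild type 2 or unchallenged wild type 1 left 4 in wild types, beside 2285 and 2861 of all probes.

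**Figure D2:**
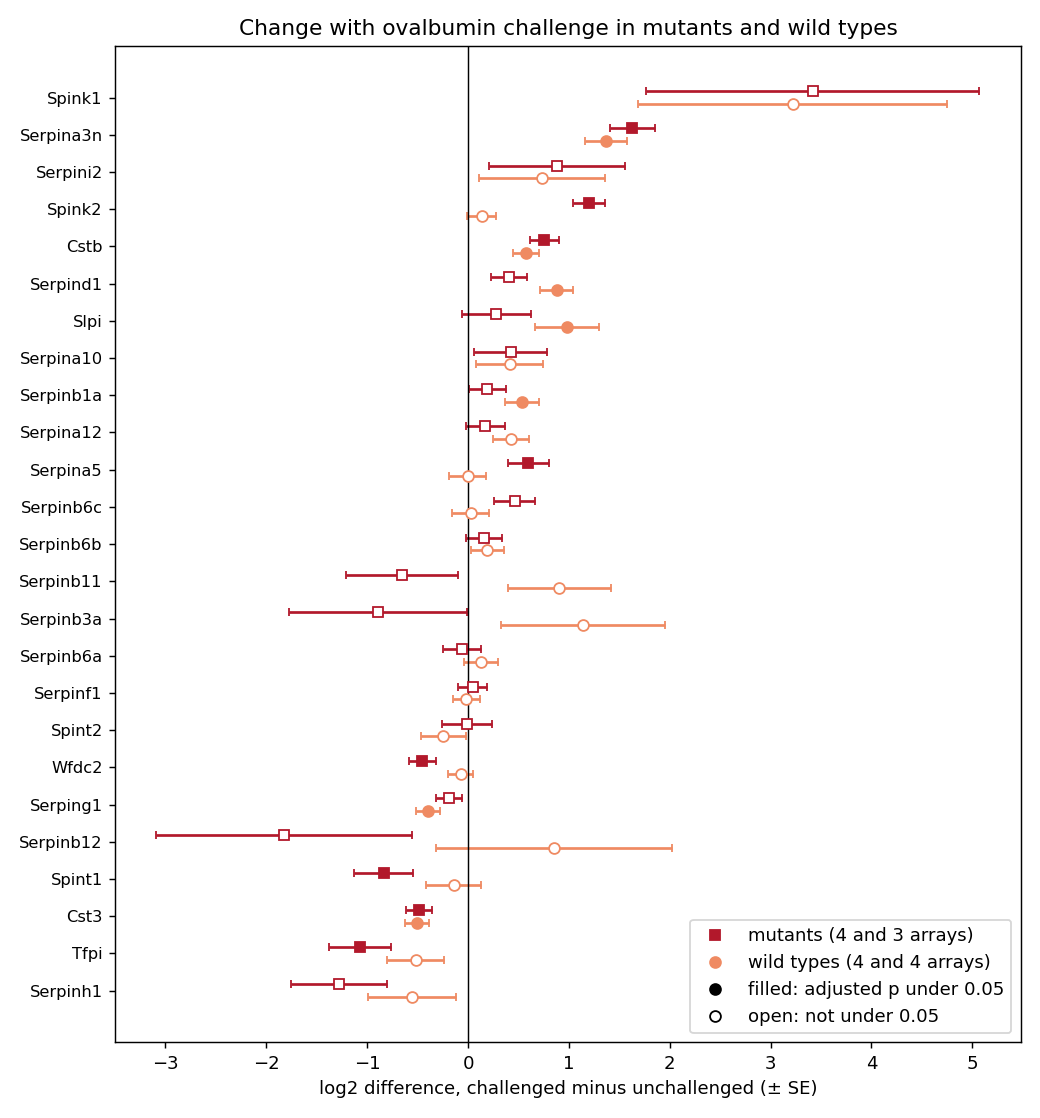
Difference made by OVA challenge for each inhibitor gene, as challenged minus unchallenged log2 intensity with its standard error, for mutants (squares) above wild types (circles). Filled symbols have an adjusted p under 0.05 (limma, over all tested probes): 8 in mutants and 7 in wild types. Where a probe was undetected throughout a group, the plotted difference is the fitted one and not a bound.

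Serpina3n, on chromosome 12, is the mouse relative of human alpha-1-antichymotrypsin, a secreted acute-phase serpin. Its level was 13.12, 12.79, 12.58 and 12.57 log2 units in the 4 challenged mutants, 12.27, 12.72, 11.59 and 12.49 in the 4 challenged wild types, 10.97, 11.36 and 11.08 in the 3 unchallenged mutants, and 11.05, 10.83, 10.81 and 10.91 in the 4 unchallenged wild types. All 8 challenged lungs lay above all 7 unchallenged ones, with challenged wild type 3 the lowest of the 8. Challenge raised it 3.09-fold in mutants (log2 difference 1.63 ± 0.22 SE, adjusted p = 0.00026) and 2.58-fold in wild types (1.37 ± 0.20, adjusted p = 0.000617). It was called under all 31 alternative settings in each genotype. Its probe could also bind transcripts of the other Serpina3 genes of its cluster, which was not tested.

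The 250 bases before the RefSeq start of Serpina3n (GRCm38.p6, plus strand, chr12:104406458-104406707) are shown because the gene was called under every alternative in both genotypes; none of the motifs searched here was found in its window.
Serpina3n: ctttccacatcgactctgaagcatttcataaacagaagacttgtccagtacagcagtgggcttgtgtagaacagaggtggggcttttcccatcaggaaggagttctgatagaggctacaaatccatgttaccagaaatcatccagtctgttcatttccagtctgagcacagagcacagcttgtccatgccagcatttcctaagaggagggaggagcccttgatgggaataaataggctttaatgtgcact
The search covered 300-base windows, 250 before to 50 after the start, for 20 of the 25 genes (26 windows). Both strands were read for the STAT6-type motif (TTC and GAA parted by 4 bases of any kind), the STAT3-type motif TTCNNNGAA, TTGCNNAA (C/EBP-type), GGGNNNTCC (NF-kB-type) and TGANTCA (AP-1-type). Among all 32851 windows the motifs occurred in 6.95%, 8.3%, 10.8%, 17.8% and 7.81%, and among the 26 windows of these genes in 5, 1, 4, 2 and 3. A match is a string of letters and not a measured site.

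Cstb, on chromosome 10, encodes cystatin B, an inhibitor of cathepsins inside the cell. It measured 13.63, 13.02, 13.29 and 13.21 log2 units in challenged mutants, 12.90, 13.05, 13.04 and 12.94 in challenged wild types, 12.75, 12.31 and 12.54 in unchallenged mutants, and 12.47, 12.36, 12.35 and 12.46 in unchallenged wild types. The challenged lungs of either genotype were all above their unchallenged counterparts. The rise was 1.69-fold in mutants (0.76 ± 0.14, adjusted p = 0.00189) and 1.49-fold in wild types (0.57 ± 0.13, adjusted p = 0.00743). Under median scaling, which moved the median of all probes by -0.54 in mutants and -0.31 in wild types, the calls ended; relative to those shifts Cstb stood at 0.82 and 0.62.

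Cst3, on chromosome 2, encodes cystatin C, the secreted inhibitor of the same class of proteases, and it went the other way. Levels were 13.37, 13.10, 13.46 and 12.98 log2 units in challenged mutants, 13.31, 13.23, 13.40 and 13.41 in challenged wild types, 13.79, 13.50 and 13.84 in unchallenged mutants, and 13.86, 13.81, 13.81 and 13.88 in unchallenged wild types. No challenged lung reached the lowest unchallenged lung of its genotype. Cst3 fell by 0.49 ± 0.13 log2 units in mutants (1.40-fold lower, adjusted p = 0.0134) and by 0.50 ± 0.12 in wild types (1.42-fold lower, adjusted p = 0.00958). Without unchallenged mutant 1 or 3 the mutant differences were -0.45 to -0.42, with adjusted p of 0.0527 and 0.0601. Without the 4 pancreas-high arrays, a fit that keeps only challenged wild types 3 and 4, the wild-type difference was -0.43 and no longer called (adjusted p = 0.0799).

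**Figure D3:**
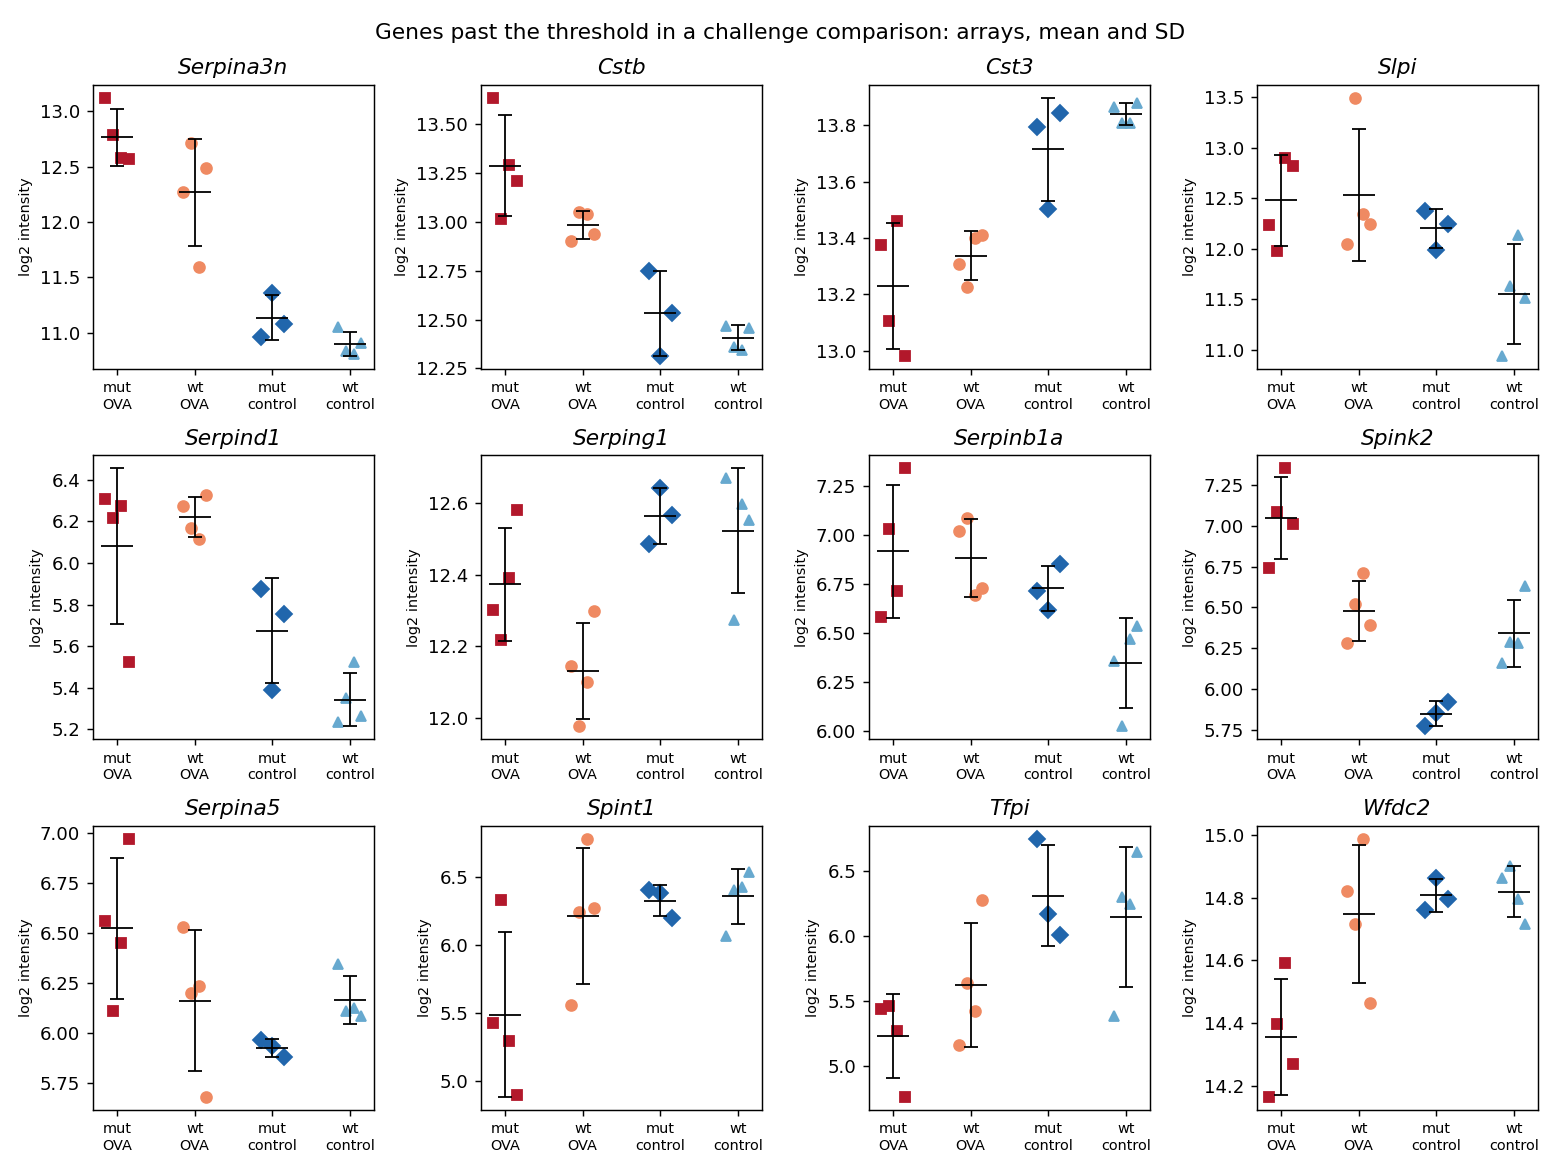
Log2 intensity of the 12 inhibitor genes past the threshold in either challenge comparison, 1 point per array, with the group mean (line) and SD (bar) for challenged mutants (mut OVA), challenged wild types (wt OVA), unchallenged mutants (mut control) and unchallenged wild types (wt control). Each panel has its own axis that does not start at 0; Serpina3n and Cstb are higher and Cst3 lower on challenged arrays of both genotypes, and Spink2 separates the challenged from the unchallenged mutants.

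Among the genes called in wild types alone, Slpi encodes secretory leukocyte protease inhibitor, a WAP-domain protein of airway epithelium that blocks neutrophil elastase and cathepsin G. Challenged wild types had 12.04, 13.49, 12.35 and 12.25 log2 units, against 11.55 ± 0.49 in unchallenged wild types (10.94, 11.62, 12.14 and 11.51; SD, n = 4). Mutants had 12.23, 11.97, 12.90 and 12.82 with challenge and 12.37, 11.99 and 12.24 without. Groups overlapped in both genotypes, and challenged wild type 2 was the highest array. Slpi was 1.97-fold higher in challenged wild types (0.98 ± 0.32, adjusted p = 0.0381), and its difference in mutants was 0.28 ± 0.34 (adjusted p = 0.545, 95% interval -0.45 to 1.01). The wild-type call ended without any 1 of challenged wild types 2 and 3 or unchallenged wild types 1, 2 and 4 (differences of 0.66 to 1.04, adjusted p 0.0567 to 0.107), and without the 4 pancreas-high arrays (0.75, adjusted p = 0.0737).

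Serpind1, on chromosome 16, encodes heparin cofactor II, a plasma serpin that inhibits thrombin. Levels were 6.27, 6.17, 6.12 and 6.33 log2 units in challenged wild types, against 5.24, 5.35, 5.52 and 5.26 in unchallenged wild types, where the probe was detected on 0 of 4 arrays. The change in wild types was therefore a lower bound: at least 1.55-fold higher with challenge (adjusted p = 0.00266), and it was called in all 30 alternatives that gave a value. In mutants, levels were 6.31, 6.22, 6.28 and 5.52 with challenge and 5.88, 5.39 and 5.76 without, a difference of 0.41 ± 0.18 (adjusted p = 0.0995). Challenged mutant 4 lay within the unchallenged range, and without it the difference was 0.59 (adjusted p = 0.00642).

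Serping1 encodes C1 inhibitor, which restrains the complement and contact systems. It measured 12.14, 11.98, 12.10 and 12.30 log2 units in challenged wild types, against 12.67, 12.27, 12.60 and 12.55 in unchallenged wild types, so that only challenged array 4 reached above the lowest unchallenged one. It fell by 0.39 ± 0.12 log2 units in wild types (1.31-fold lower, adjusted p = 0.0294). In mutants it averaged 12.37 ± 0.16 (SD, n = 4) with challenge and 12.57 ± 0.08 (SD, n = 3) without, a difference of -0.19 ± 0.13 (adjusted p = 0.265). Its wild-type call ended without challenged wild type 2 or 3 or unchallenged wild type 1, 3 or 4 (-0.38 to -0.34, adjusted p 0.0611 to 0.0873), and without the pancreas-high arrays (-0.32, adjusted p = 0.149).

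Serpinb1a encodes a cytosolic inhibitor of neutrophil serine proteases, known in neutrophils and monocytes. Challenged wild types had 7.02, 7.09, 6.70 and 6.73 log2 units, all above the 6.36, 6.03, 6.47 and 6.54 of unchallenged wild types. This was a rise of 0.54 ± 0.17 (1.45-fold, adjusted p = 0.0355). Mutants averaged 6.92 ± 0.34 (SD, n = 4) with challenge and 6.73 ± 0.12 (SD, n = 3) without (0.19 ± 0.18, adjusted p = 0.444). The call ended without challenged wild type 1 or 2 or unchallenged wild type 1, 2 or 3 (0.43 to 0.58, adjusted p 0.0559 to 0.115), and without the pancreas-high arrays (0.37, adjusted p = 0.218). Neutrophil markers moved alongside, with 4 of 9 tested genes higher in challenged mutants and 5 of 9 in challenged wild types and none lower; their part in the Serpinb1a difference was not tested.

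Of the genes called in mutants alone, Spink2 had the smallest p-value. It encodes a Kazal-type inhibitor of trypsin-like enzymes, known chiefly from the testis and the acrosome of sperm. The gene lies on chromosome 5, and its levels were 6.74, 7.09, 7.35 and 7.01 log2 units in challenged mutants, 6.28, 6.52, 6.71 and 6.39 in challenged wild types, 5.77, 5.85 and 5.92 in unchallenged mutants, and 6.16, 6.29, 6.28 and 6.63 in unchallenged wild types. The challenged mutants were the highest group and the unchallenged mutants the lowest, with no overlap between mutants and wild types in either condition. Challenge raised it 2.30-fold in mutants (1.20 ± 0.16, adjusted p = 0.000214), against 0.14 ± 0.15 in wild types (adjusted p = 0.529). Of 31 alternatives the mutant call ended in 1, the fit with mean signal as a covariate, where the difference was again 1.20 (adjusted p = 0.0587).

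The test of the Spink2 difference between genotypes did not pass. The challenge effect in mutants exceeded that in wild types by 1.06 ± 0.21 log2 units (unadjusted p = 0.000186, adjusted p = 0.95). Challenged mutants were above challenged wild types by 0.57 ± 0.15 (adjusted p = 0.114), and unchallenged mutants differed from unchallenged wild types by -0.49 ± 0.16 (adjusted p = 1). With the skeletal muscle level of each array as a covariate, an alternative added after the data were seen, Spink2 was called between challenged mutants and challenged wild types. That fit called 139 of all 14396 probes there, against 25 without the covariate.

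Serpina5 encodes protein C inhibitor, a heparin-binding serpin that acts on activated protein C and several other serine proteases. Challenged mutants had 6.56, 6.11, 6.45 and 6.97 log2 units and unchallenged mutants 5.97, 5.93 and 5.88, without overlap. It was 1.52-fold higher in challenged mutants (0.60 ± 0.20, adjusted p = 0.0353). In wild types the levels were 6.53, 6.20, 6.23 and 5.68 with challenge and 6.35, 6.11, 6.12 and 6.08 without, and the 95% interval of their difference ran from -0.40 to 0.39. The difference between the challenge effects was 0.60 ± 0.27 (unadjusted p = 0.0426, adjusted p = 1). Leaving out any of the 3 unchallenged mutants, or challenged mutant 1, 3 or 4, ended the call (0.45 to 0.62, adjusted p 0.051 to 0.0943), and with mean signal as a covariate the difference was -0.04.

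Both Kunitz-type genes called in mutants were lower. Tfpi encodes tissue factor pathway inhibitor, made by endothelium, which shuts off the start of clotting. Levels were 5.44, 5.46, 5.27 and 4.77 log2 units in challenged mutants, with detection on 0 of 4 arrays, against 6.74, 6.17 and 6.01 in unchallenged mutants, detected on 3 of 3. Tfpi was at least 1.28-fold lower in challenged mutants (adjusted p = 0.0175). Challenged wild types had 5.16, 5.64, 5.42 and 6.27 and unchallenged wild types 5.39, 6.30, 6.24 and 6.64, a difference of -0.52 ± 0.28 (adjusted p = 0.202). Without unchallenged mutant 1, the highest mutant array, the difference in mutants was -0.85 (adjusted p = 0.0848), and with mean signal as a covariate it was 0.18. Of 9 tested endothelial markers, 7 were lower in challenged mutants and 7 in challenged wild types; their part in the Tfpi difference was not tested.

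Spint1 encodes HAI-1, the epithelial membrane inhibitor of matriptase and hepatocyte growth factor activator. It measured 5.42, 6.33, 5.30 and 4.90 log2 units in challenged mutants and 6.40, 6.38 and 6.20 in unchallenged mutants, and challenged mutant 2 lay within the unchallenged range. It fell by 0.84 ± 0.30 log2 units in mutants (1.79-fold lower, adjusted p = 0.0451), while in wild types the levels averaged 6.21 ± 0.50 with challenge and 6.36 ± 0.20 without (SD, n = 4 each, -0.14 ± 0.27, adjusted p = 0.744). The probe was detected on 1 of 4 challenged mutant arrays and on 3 of 3 unchallenged mutant arrays. The size of the fall in mutants thus rests partly on undetected signals. Among the called genes Spint1 held in the fewest alternatives, 13 of 31. Leaving out any of 11 arrays ended its call (challenged mutants 1, 3 and 4, challenged wild types 2 and 4, unchallenged mutants 1, 2 and 3, and unchallenged wild types 2, 3 and 4), with differences of -0.90 to -0.64 and adjusted p of 0.0529 to 0.125.

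Wfdc2, also called HE4, is a WAP-domain protein secreted by airway epithelium. Challenged mutants had 14.16, 14.40, 14.59 and 14.27 log2 units, all below the 14.76, 14.86 and 14.80 of unchallenged mutants. It was 1.37-fold lower in challenged mutants (-0.45 ± 0.14, adjusted p = 0.0218). Challenged wild types averaged 14.75 ± 0.22 and unchallenged wild types 14.82 ± 0.08 (SD, n = 4 each; adjusted p = 0.714). A second Wfdc2 probe was also called lower in mutants, by -0.91 ± 0.32 (adjusted p = 0.0415), with -0.28 ± 0.29 in wild types. On the brightest probe the call ended without unchallenged mutant 2 or 3 (-0.46 to -0.42, adjusted p 0.0549 and 0.0841) and without the pancreas-high arrays (-0.38, adjusted p = 0.0995). Club cell markers were lower too, for 5 of 7 genes in challenged mutants and 3 of 7 in challenged wild types. They summed to 67358 to 83846 units in challenged mutants and 82501 to 109347 in challenged wild types. The sums were 103118 to 120800 in unchallenged mutants and 112339 to 124775 in unchallenged wild types. Between challenged mutants and challenged wild types, 2 of 7 were called lower (median -0.78 log2 units), beside 0.146% of all probes. Hp was among them (-0.93 ± 0.15, limma, adjusted p = 0.0352). Wfdc2 was not called there (-0.39 ± 0.13, adjusted p = 0.208). None of the 7 markers was called in the interaction. The part of these markers in the Wfdc2 difference was not tested.

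Between genotypes, no inhibitor gene passed the threshold. Challenged mutants against challenged wild types gave 0 of 25 calls, with 5 genes at an unadjusted p under 0.05 (Spink2, Wfdc2, Spint1, Serpina3n and Cstb), beside 12.7% of all probes. At the adjusted threshold 0.174% of all probes were called (0.0278% higher, 0.146% lower). Spink2 was the 1 gene whose groups did not overlap, on the higher side, as for 1.92% of all probes, and 0 were lower without overlap (2.24%). Serpina3n was 0.50 ± 0.20 log2 units higher in challenged mutants (adjusted p = 0.331), and Cstb 0.31 ± 0.13 (adjusted p = 0.353). Unchallenged mutants against unchallenged wild types also gave 0 calls, with 1 gene (Spink2) at an unadjusted p under 0.05, beside 2.6% of all probes; 0.0139% of all probes were called. Without overlap, Serpinb1a was higher in unchallenged mutants (2.8% of all probes), and Serpina5 and Spink2 were lower (4.75%). The interaction of genotype and challenge gave 0 calls by limma among the 25 genes and among all 14396 probes (0%), with 2 genes (Spink2 and Serpina5) and 590 probes (4.1%) at an unadjusted p under 0.05. None of the genes called in only 1 genotype was therefore shown to respond differently in the 2 genotypes.

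Serpinb12, Serpinb3a and Serpinb11 varied widely between mice of the same group, and are described because their values drew attention. They belong to a cluster of clade B serpins on chromosome 1 and are known from stratified epithelia; human SERPINB3 was first described as squamous cell carcinoma antigen. Serpinb12 measured 4.79, 4.90, 7.91 and 7.36 log2 units in challenged mutants, 4.73, 10.78, 8.35 and 7.70 in challenged wild types, 6.61, 8.78 and 8.80 in unchallenged mutants, and 4.77, 7.97, 8.91 and 6.51 in unchallenged wild types. Challenged mutants 1 and 2, challenged wild type 1 and unchallenged wild type 1 lay near the floor, and challenged wild type 2 was far above the rest. Serpinb3a ran from 5.06 to 9.64 over the 15 arrays and Serpinb11 from 4.72 to 8.03, each with its highest value on challenged wild type 2 and its lowest on unchallenged wild type 1.

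The summed signal of squamous epithelium markers followed the same mice. The summed intensity of 14 such markers was 2041, 2062, 12940 and 18732 units in challenged mutants, 2127, 58333, 17616 and 11124 in challenged wild types, 4924, 17169 and 17946 in unchallenged mutants, and 1422, 11556, 18636 and 7119 in unchallenged wild types. Of the 20 markers on the list 14 were tested, and Krt6a, Krt6b, Dsg3 and Dsc3 were detected on no array. Not every tested marker followed the sum. Sprr2a1 stayed within 7.69 and 8.55 log2 units and was highest on challenged mutant 2, and Trp63 was 7.27 on challenged mutant 1. Skeletal muscle markers were lowest on the same 4 arrays, with 493 to 1471 summed units, against 11848 to 64530 on the other 11. What these markers contribute to the Serpinb values was not tested. Slpi ranked the arrays in the order of the squamous sums within both wild-type groups, but not within either mutant group. With the squamous level of each array as a covariate, added after the data were seen, Slpi differed by 0.77 in wild types (limma, adjusted p = 0.0177). The cause of the shared order was not tested.

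Groups overlapped for all 3 Serpinb genes. Challenge gave Serpinb12 -1.82 ± 1.27 log2 units in mutants (adjusted p = 0.283) and 0.85 ± 1.17 in wild types (adjusted p = 0.632), and its interaction was -2.67 ± 1.73 (adjusted p = 1). For Serpinb3a the differences were -0.90 ± 0.88 in mutants and 1.14 ± 0.82 in wild types. Serpinb11 was detected on 0 of 4 challenged mutant arrays, and its wild-type difference was 0.91 ± 0.52. Second probes of Serpinb12 and Serpinb3a were not called in any of the 5 comparisons. The second Serpinb3a probe, detected on 4 arrays, was opposite in sign to the first in mutants (0.18 ± 0.42). In wild types it was 0.77 ± 0.39. Between unchallenged mutants and unchallenged wild types it was -0.09 ± 0.42, against 0.75 ± 0.88 on the first probe.

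**Figure D4:**
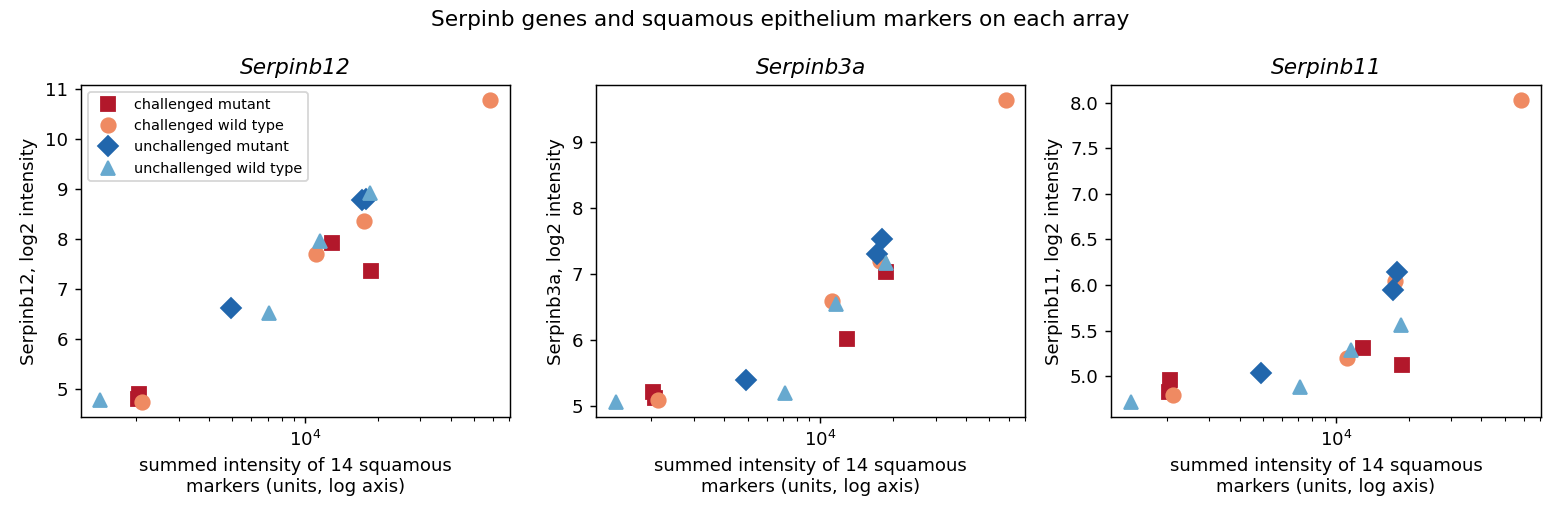
Log2 intensity of Serpinb12, Serpinb3a and Serpinb11 against the summed intensity of 14 squamous epithelium markers (log axis), 1 point per array, with symbols for the 4 groups. Challenged wild type 2 is at the upper right of each panel (58333 units), and the 4 arrays with 1422 to 2127 units are at the lower left.

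The 250 bases before the start of each of the 3 genes (RefSeq, GRCm38.p6) are shown because the genes belong to the same cluster on chromosome 1 and all peaked on challenged wild type 2. Capitals mark TGANTCA. Serpinb12 (its upstream window of a pair) is on the plus strand at chr1:106934199-106934448, Serpinb3a on the minus strand at chr1:107052304-107052553, and Serpinb11 on the plus strand at chr1:107362064-107362313.
Serpinb12: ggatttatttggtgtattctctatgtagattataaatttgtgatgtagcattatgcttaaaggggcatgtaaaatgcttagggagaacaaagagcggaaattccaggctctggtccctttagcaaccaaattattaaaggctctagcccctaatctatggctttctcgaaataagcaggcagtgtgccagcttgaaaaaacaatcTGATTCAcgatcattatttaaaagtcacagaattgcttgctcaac
Serpinb3a: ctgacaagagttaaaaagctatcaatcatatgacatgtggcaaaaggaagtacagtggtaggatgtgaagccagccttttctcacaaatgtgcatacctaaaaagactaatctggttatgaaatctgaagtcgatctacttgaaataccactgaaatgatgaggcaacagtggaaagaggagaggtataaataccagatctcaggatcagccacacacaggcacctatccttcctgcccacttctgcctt
Serpinb11: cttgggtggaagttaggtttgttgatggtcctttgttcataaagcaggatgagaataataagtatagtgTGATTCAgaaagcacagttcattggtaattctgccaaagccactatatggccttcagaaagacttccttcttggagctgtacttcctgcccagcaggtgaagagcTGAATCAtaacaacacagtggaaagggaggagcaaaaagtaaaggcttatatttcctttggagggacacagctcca
Serpinb12 held TGANTCA at -45 from the start and Serpinb11 at -181 and -76, while the Serpinb3a window held none. Spint1 was the third gene of the set with TGANTCA, which 7.81% of all windows contain. Of the other motifs searched, this Serpinb12 window also held 2 C/EBP-type matches, left in lower case here. The C/EBP-type motif occurs in 10.8% of all windows. The Serpinb3a and Serpinb11 windows held none of the other motifs.

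Spink1 encodes the pancreatic secretory trypsin inhibitor, made in bulk by acinar cells of the pancreas. Its level was 9.93, 13.36, 6.55 and 5.26 log2 units in challenged mutants, 11.99, 10.73, 6.51 and 5.92 in challenged wild types, 5.15, 5.40 and 5.52 in unchallenged mutants, and 5.48, 5.66, 5.27 and 5.87 in unchallenged wild types. Arrays 1 and 2 of both challenged groups stood far above the other 11. The fitted difference was 3.42 ± 1.65 log2 units in mutants (limma, adjusted p = 0.127) and 3.22 ± 1.53 in wild types (9.30-fold, adjusted p = 0.145). Neither comparison passed, and the 95% interval in mutants, -0.12 to 6.95, included no change. Spink1 was detected on 0 of 3 unchallenged mutant arrays. The resulting bound of 9.27-fold applies to the ratio of the observed mutant means and is no lower limit on a challenge effect. Challenged mutant 4 lay within the unchallenged mutant range. Without challenged mutant 4, the lowest of its group, the mutant comparison had an adjusted p of 0.0473 and a fitted difference of 4.59.

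Exocrine pancreas markers were high on the same 4 arrays. Their summed intensity over 23 genes was 36217, 428476, 1662 and 1548 units in challenged mutants, 182112, 83063, 2198 and 1489 in challenged wild types, 888 to 1163 in unchallenged mutants, and 878 to 971 in unchallenged wild types. The order of the 4 high arrays by Spink1 was their order by marker intensity. Without them the differences were 0.55 log2 units in mutants (adjusted p = 0.204) and 0.65 in wild types (adjusted p = 0.182).

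Serpini2, a serpin known from pancreas and named pancpin in humans, had 8.24 log2 units on challenged mutant 2, 6.64 and 5.87 on challenged wild types 1 and 2, and 4.63 to 4.99 on the other 12 arrays. It was detected on those 3 arrays alone. Its differences were not called in mutants (adjusted p = 0.33) or wild types (adjusted p = 0.417), and without the 4 pancreas-high arrays they were 0.14 and 0.03. It is described because its values drew attention.

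**Figure D5:**
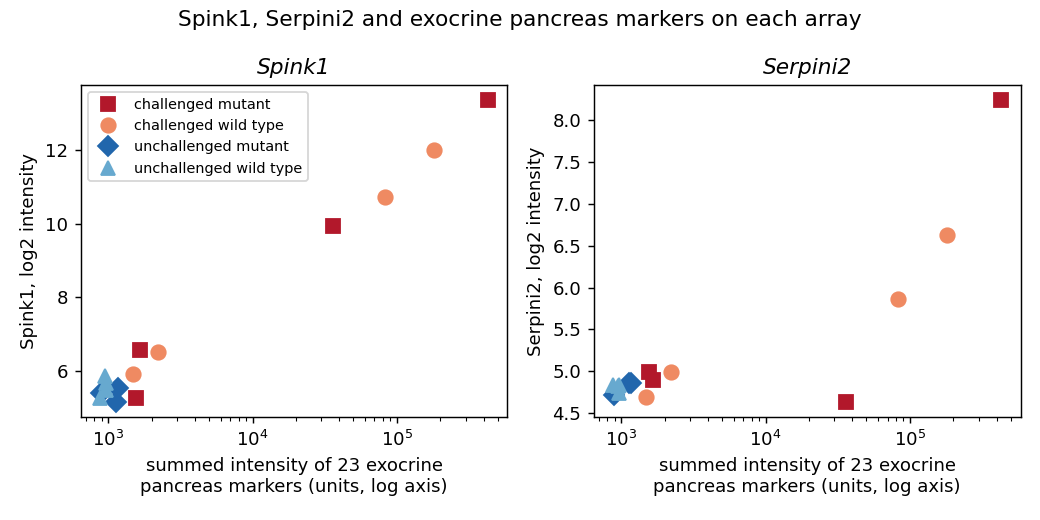
Log2 intensity of Spink1 and Serpini2 against the summed intensity of 23 exocrine pancreas markers (log axis), 1 point per array, with symbols for the 4 groups. The 4 challenged arrays with 36217 to 428476 units carry Spink1 at 9.93 to 13.36, while Serpini2 is raised on 3 of them.

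The other members showed smaller or less even differences. Serpinb6a, a cytosolic inhibitor of trypsin-like proteases and cathepsin G, averaged 11.30 ± 0.21 in challenged mutants, 11.43 ± 0.39 in challenged wild types, 11.36 ± 0.17 in unchallenged mutants and 11.30 ± 0.10 in unchallenged wild types (SD, n = 4, 4, 3 and 4). The 95% intervals of its challenge effect were -0.46 to 0.34 in mutants and -0.24 to 0.50 in wild types. Spint2, or HAI-2, the relative of Spint1, averaged 6.72 ± 0.40, 6.66 ± 0.46, 6.73 ± 0.18 and 6.90 ± 0.20 in the same groups (SD), with intervals of -0.53 to 0.51 and -0.73 to 0.24. Serpinf1, which encodes the anti-angiogenic serpin PEDF and inhibits no protease, lay within 9.74 and 10.34 on all 15 arrays.

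Serpinh1, or Hsp47, is a collagen chaperone of the endoplasmic reticulum and also no protease inhibitor. It measured 5.60, 7.19, 5.84 and 4.99 log2 units in challenged mutants, 5.60, 6.65, 6.69 and 6.84 in challenged wild types, 7.33, 7.37 and 6.84 in unchallenged mutants, and 5.97, 7.41, 7.64 and 6.98 in unchallenged wild types. Challenged mutant 2 stood apart from the 3 lower challenged mutants. The differences were -1.28 ± 0.47 in mutants (adjusted p = 0.0541) and -0.55 ± 0.44 in wild types (adjusted p = 0.381). Detection was on 1 of 4 challenged mutants, 3 of 4 challenged wild types and all unchallenged arrays. Of 16 tested collagen and collagen-folding genes, 4 rose and 5 fell in mutants and 5 rose and 3 fell in wild types; Col6a2 rose in both and Plod2, a collagen lysyl hydroxylase, fell in both.

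Serpina10, the inhibitor of clotting factor Xa with protein Z, was detected on 4 of 4 challenged mutants, 1 of 4 challenged wild types, 2 of 3 unchallenged mutants and 0 of 4 unchallenged wild types, and was not called. Serpina12, or vaspin, was detected on 1, 3, 0 and 1 arrays of those groups (0.43 ± 0.18 in wild types, adjusted p = 0.0934). Serpinb6b differed by 0.16 and 0.19 log2 units in mutants and wild types, and Serpinb6c by 0.46 ± 0.20 (adjusted p = 0.0963) and 0.02 ± 0.19. The probes of the Serpinb6 genes could share targets, which was not tested.

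For the remaining 43 symbols the probes did not pass the detection filter. Of these, 34 were detected on 0 arrays, 5 on 1 and 4 on 2 (Serpina1b, Serpina9, Serpinb2 and Spink4). They include the Serpina1 genes, which encode alpha-1-antitrypsin, the antithrombin gene Serpinc1, the granzyme B inhibitor family Serpinb9, and Csta1 and Tfpi2. Undetected probes bound the level only from above on these arrays.

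Proteases that such inhibitors act on, and other inhibitors, were read from lists drawn up for this purpose, against 30.5% of all probes called in mutants and 22.5% in wild types. The list of papain-like cathepsins, the targets of cystatins, also held Lgmn, which encodes legumain. Of the 10 tested genes on this list 5 rose in mutants and 6 in wild types, and none fell (medians 0.36 and 0.47 log2 units). Ctsz rose 2.55-fold in mutants and 3.03-fold in wild types, and Ctsk, a collagen-degrading cathepsin, 2.39-fold and 3.46-fold. These rises stood beside a higher Cstb and a lower Cst3. Markers of alternatively activated macrophages moved alongside: 7 of 8 tested genes were higher in challenged mutants and 8 of 8 in challenged wild types (medians 3.10 and 3.07). Their summed intensity was 68889 to 81496 units in challenged mutants, 76992 to 86293 in challenged wild types, 8502 to 32566 in unchallenged mutants and 6539 to 9943 in unchallenged wild types; their part in the cathepsin and Cstb differences was not tested.

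In the plasminogen and clotting list, 5 of 14 tested genes rose and 2 fell in mutants, and 4 rose and 1 fell in wild types (medians 0.12 and -0.05). F10, the gene of clotting factor X, rose 3.41-fold in mutants (adjusted p = 0.00029) and 4.60-fold in wild types, and F13a1, the subunit of the fibrin-crosslinking factor, 2.67-fold and 2.22-fold. Thbd, or thrombomodulin, fell by 0.64 log2 units in mutants. Of 4 tested neutrophil and mast cell proteases, Cpa3 (mast cell carboxypeptidase, 1.17 ± 0.21) and Prtn3 (proteinase 3, 0.91 ± 0.26) rose in mutants and 0 in wild types. Their interactions were not called. Of 4 granzymes and caspases, Casp4, the inflammatory caspase-11, rose in both genotypes (0.81 in mutants and 0.90 in wild types).

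The list of membrane-anchored and kallikrein-like proteases also held Hgf, a growth factor gene, and Hgfac and Htra1. Of its 17 tested genes, 3 rose and 2 fell in mutants and 3 rose and 1 fell in wild types (medians -0.17 and 0.35). Prss8, or prostasin, fell by 0.81 ± 0.23 in mutants (adjusted p = 0.0192), and St14, the matriptase held back by Spint1, rose by 0.64 ± 0.17 in wild types (adjusted p = 0.0159). Tmprss4 rose in both genotypes, by 0.58 in mutants and 0.64 in wild types. Prss23 had the smallest p-value of the list in both genotypes and fell in both (-1.04 in mutants and -1.07 in wild types). None of the 17 genes was called in the interaction of genotype and challenge.

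Among 21 tested inhibitors outside the set, 6 rose and 3 fell in mutants, and 5 rose and 3 fell in wild types (medians 0.29 and 0.38). Timp1, the inhibitor of matrix metalloproteases, rose 8.65-fold in mutants and 7.46-fold in wild types, more than any gene called in the set. Kng1, the kininogen gene with cystatin domains, rose 4.20-fold and 2.50-fold, and the WAP-domain gene Wfdc17 3.76-fold and 2.50-fold. The list of acute-phase genes, the class Serpina3n belongs to, also held cytokine, receptor and regulator genes such as Il6, Il6ra and Stat3. Of its 14 tested genes, 4 were higher and 3 lower in mutants, and 5 higher and 2 lower in wild types. Saa3 rose 20.1-fold in mutants and 20.7-fold in wild types, and Hp fell in mutants (-0.99, limma, adjusted p = 0.00088). The interleukin-6 receptor gene Il6ra fell by 0.86 log2 units in mutants and 1.20 in wild types.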

How the data were processed

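The raw signal table deposited by the authors holds, per the file headers, the intensity of each probe on a linear scale beside its detection p-value, and their series matrix gives a further linear intensity; the submitters' processing notes name GenomeStudio 2011.1 without its role. Intensities of 25697 probes were background-corrected from the detection p-values, quantile-normalised and taken to log2 with offset 16 (neqc, limma 3.58.1, R 4.3.3). Probes with detection p under 0.05 on at least 3 arrays were tested in a group-means model over all 15 arrays with 11 residual degrees of freedom (lmFit, eBayes, two-sided, Benjamini-Hochberg over all probes, threshold 0.05). Replicates are separate mice, and their number limits the precision. Symbols came from the platform annotation; 23962 probes had a gene identifier in the RefSeq table. A probe undetected throughout a group gave a fold bound from the lowest signal detected on each array. Members were named where called and among the 12 smallest p-values of a comparison, or brightest in their family; Serpinb11, Serpinb12, Serpinb3a and Serpini2 were added for their values. From each companion list the 4 genes of smallest p were eligible. The members and lists were chosen with earlier results of these data known. The script was tested on simulated data. Alternatives covered background, normalisation, filter, model, covariates, replicate block and each array left out.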

Additional observations from a re-analysis of the deposited data

Results flagged for a closer look

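In groups of 4 arrays, 5 of 75 gene and group combinations held a value whose gap to the next array exceeded Dixon's 95% critical ratio; chance flags about 1 in 20. Serpini2 on challenged mutant 2 was 8.24 log2 units, with 4.63 to 4.99 on the other 3 challenged mutants. Serpind1 on challenged mutant 4, the dimmest array, was 5.52, with 6.22 to 6.31 on the rest. Serpinb6c on challenged mutant 1 was 5.46, with 6.02 to 6.14 on the others. Serpinh1 on challenged wild type 1 was 5.60, with 6.65 to 6.84 on the others. Serpina5 on unchallenged wild type 1 was 6.35, with 6.08 to 6.12 on the others.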

How the results depend on the processing

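Of the 25 inhibitor genes, 8 were called for challenge in mutants and 7 in wild types. With mean signal as a covariate these counts were 1 and 3; the differences in mutants turned to -0.040 for Serpina5 and 0.18 for Tfpi, while those of Spink2 (1.20), Cstb (0.81), Wfdc2 (-0.61) and Cst3 (-0.40) lost the call at about their size or above it; the cause was not tested. With only the groups compared in the fit, 4 were called in mutants. Leaving out 1 array at a time gave 4 to 9 calls in mutants and 4 to 8 in wild types. Without the 4 pancreas-high arrays, chosen after seeing the data, 3 were called in wild types, beside 2444 of all probes. Between challenged mutants and challenged wild types that fit called 1 (Spint1), beside 224 of all probes, against 25 in the main fit. With the skeletal muscle level as a covariate, also added later, 1 (Spink2) was called between those groups, beside 139 of all probes. No other alternative moved a count by more than 1.5 times, and the comparison of unchallenged genotypes and the interaction stayed at 0 throughout. The replicate block gave 7 in mutants, 6 in wild types and 0 in the other comparisons. Same-numbered arrays of different groups deviated together with correlations of -0.11 to 0.499 (median 0.0663, 9 of 21 over 0.1). Arrays of different numbers gave -0.479 to 0.355 (median -0.0294, 16 of 63 over 0.1). Since these ranges overlap, the correlations cannot decide whether the numbers mark pairs or batches. Over all probes, calls in mutants numbered 4392, with 190 under the mean signal covariate, 2531 with only the groups compared, 2310 without unchallenged mutant 2 and 7931 under median scaling (540 higher, 7391 lower, against 1944 and 2448). In wild types they numbered 3240, with 964 under the covariate, 5410 with array weights, 2106 and 2127 without unchallenged wild types 2 and 3, and 5158 under median scaling (558 higher, 4600 lower, against 1411 and 1829). The slide as a block was not run, since the files used here name no slide. The dim challenged arrays limit what can be said of probes near background, such as Tfpi, Spint1, Serpinh1, Serpind1 and Serpinb11.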
